A study of Homo sapiens with 6 samples.

Results

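The proteasome is the protease complex that degrades most short-lived and misfolded proteins in the cytoplasm and nucleus, and its subunits and assembly factors are encoded by genes whose symbols begin with PSM. The genes described here are the protein-coding genes whose symbol is PSM, then a letter from A to G, then a number. The rule found 48 genes among 67051 gene identifiers in the count tables, of which 19900 are protein-coding genes of GENCODE release 29. The rule uses symbols and no expression value, but it was set with earlier results of these data known. They lie on 17 chromosomes, 8 of them on chromosome 14 and 7 on chromosome 17.

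A barrel-shaped core particle, called 20S, is built of stacked rings: the outer alpha rings (PSMA genes) gate the entrance and the inner beta rings (PSMB genes) hold the proteolytic sites. A regulatory particle, called 19S (PSMC and PSMD genes), binds ubiquitylated proteins, removes the ubiquitin, unfolds the protein and feeds it into the core. Dedicated chaperones (PSMG genes and part of the PSMD genes) assemble both particles, and alternative caps (PSME genes) replace the regulatory particle on some cores. In neurons the pathway is studied for its part in clearing damaged and aggregation-prone proteins, Parkinson's disease included.

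Nascent transcription was measured by PRO-seq, in which isolated nuclei extend and label the RNA that engaged RNA polymerase holds, and that RNA is sequenced, in SH-SY5Y, a human neuroblastoma cell line. Cells were given 0.1 mM MPP+ for 24 h, given 0.1 mM MPP+ for 0.5 h, or left untreated, with 2 libraries in each group. MPP+ is the active metabolite of the neurotoxin MPTP, which inhibits complex I of the respiratory chain and is used to model the loss of dopamine neurons in Parkinson's disease. Whether the paired libraries of each group were grown as separate cultures is not stated, so p-values here reflect library-to-library spread that may be purely technical.

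Between 5983066 and 11707612 reads per library were assigned to genes, so 3 counts, the limit that a count of 0 allows, correspond to 0.256 to 0.501 CPM (counts divided by the library's total and multiplied by 1000000, with TMM scaling of the total for the gene values below). Of the markers of noradrenergic neuroblastoma, PHOX2A, HAND2, GATA3, ISL1, DBH and CHGA were transcribed in all libraries, whereas TH, which encodes the rate-limiting enzyme of dopamine synthesis, had 2 to 10 counts per library. GATA3 had 1198 and 924 CPM at 24 h, 1289 and 1085 CPM at 0.5 h, and 1342 and 1135 CPM in untreated cells, with overlap between the groups. The 6 leukocyte markers summed to 46.1 to 56.1 CPM at 24 h, 45.4 to 49.4 CPM at 0.5 h and 53.4 to 56.7 CPM in untreated cells, nearly all of it CD74.

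The counts of a gene include only reads that the tables could give to that gene alone. Of 870 protein-coding genes whose whole body is covered by genes on the opposite strand only, 865 (99.43%) had 0 counts in all libraries, against 502 of 7149 genes (7.022%) that overlap no other gene. Of 610 genes covered on the same strand, 586 (96.07%) had 0 counts. The values below therefore cover the part of each gene body that no other gene overlaps, on either strand, and 19 of the 48 PSM genes overlap no other gene. Antisense transcription within that part cannot be told apart from that of the gene itself. Gene positions below are those of GENCODE 29 on GRCh38.

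For 4 genes almost nothing remained, and their low counts say nothing about their transcription. PSMA3 had no base of its own, and PSMA2, PSMA6 and PSMD9 had 25, 19 and 78 bases free of other genes. PSMA2 and PSMA3 had 0 counts in all libraries, PSMA6 had 0 or 1 and PSMD9 had 3 to 6. Together with PSMB8, PSMB9 and PSMB11, described below, they were too low to be tested. The other 41 PSM genes were tested among 23133 genes.

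After 24 h of MPP+ no PSM gene passed the test against untreated cells, and none did at 0.5 h. The test was edgeR's quasi-likelihood test with Benjamini-Hochberg adjustment over all 23133 genes and a threshold of 0.05. At 24 h it called 0 of 41 PSM genes, where 0.0692% of all tested genes (16) were called. At 0.5 h it called 0 of 41, where 0.0735% of all tested genes (17) were called. Between 24 h and 0.5 h it called 0 of 41 and 0% of all genes. DESeq2 also called 0 PSM genes in each comparison. The authors' deposited tables of changed genes list 24 genes at 24 h and 17 at 0.5 h, with 0 PSM genes in either.

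At an unadjusted p under 0.05, edgeR counted 3 PSM genes at 24 h against untreated cells, where the share over all genes was 8.1%. It counted 1 at 0.5 h against untreated cells, with 2.46% of all genes, and 4 at 24 h against 0.5 h, with 6.42% of all genes. By edgeR these counts are near the shares of all genes, and so are no result about the proteasome genes. DESeq2 counted 0 PSM genes at 24 h and 0 at 0.5 h, both against untreated cells, with 3.26% and 0.601% of all genes. At 24 h against 0.5 h it counted 2, with 2.17% of all genes.

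The fitted differences were small, and their intervals limit what could have been missed. The 95% interval of the log2 fold change lay within 1 log2 unit of 0 for 39 of the 41 genes at 24 h and for 40 at 0.5 h, both against untreated cells. It lay within 0.5 log2 units of 0 for 24 genes at 24 h and for 26 at 0.5 h. PSMB6 and PSME2 were the genes whose 24 h interval reached 1 log2 unit, and both had few counts.

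The signs of these small differences were uneven. At 24 h against untreated cells, 31 of 41 log2 fold changes were below 0, against 49.6% of all tested genes, with a median of -0.0432 for the PSM genes and 0.00232 for all genes. At 0.5 h against untreated cells, 9 of 41 were below 0, against 47.9% of all genes, with medians of 0.074 for the PSM genes and 0.00821 for all. At 24 h against 0.5 h, 35 of 41 were below 0, against 49.5% of all genes, with medians of -0.121 for the PSM genes and 0.00295 for all. The first and second of these comparisons share the untreated libraries and the third shares its libraries with both, so they are not independent. Leaving out 1 library at a time gave 24 to 31 genes below 0 at 24 h, 9 to 17 at 0.5 h and 32 to 36 for 24 h against 0.5 h. At 0.5 h the count was 17 without the second 0.5 h library and 16 without the first untreated one, and the median of the PSM genes was 0.035 and 0.0326 without them. With upper-quartile scaling, and with library size only, 30 genes were below 0 at 24 h, 14 at 0.5 h and 29 for 24 h against 0.5 h. These scalings also moved the median of all genes. In that order of scalings it was 0.0146 and 0.0093 at 24 h and -0.0134 and -0.017 at 0.5 h. For 24 h against 0.5 h it was 0.0367 and 0.0357.

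Whether the libraries of 2 groups overlapped was counted for each gene. At 24 h both libraries lay below both untreated libraries for 8 of 41 genes, where 18.5% of all genes did so, and above them for 3 genes, where 18.8% did. At 0.5 h both libraries lay above the untreated ones for 7 genes (12.9% of all genes) and below them for 1, PSMC4 (14.4% of all genes). Both 24 h libraries lay below both 0.5 h libraries for 18 of 41 genes, which is 43.9%, where 19% of all genes did so. They lay above them for 1 gene, PSME2, where 19.4% of all genes did. Apart from the lower 24 h values against 0.5 h, these shares were near or below those of all genes.

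**Figure D1:**
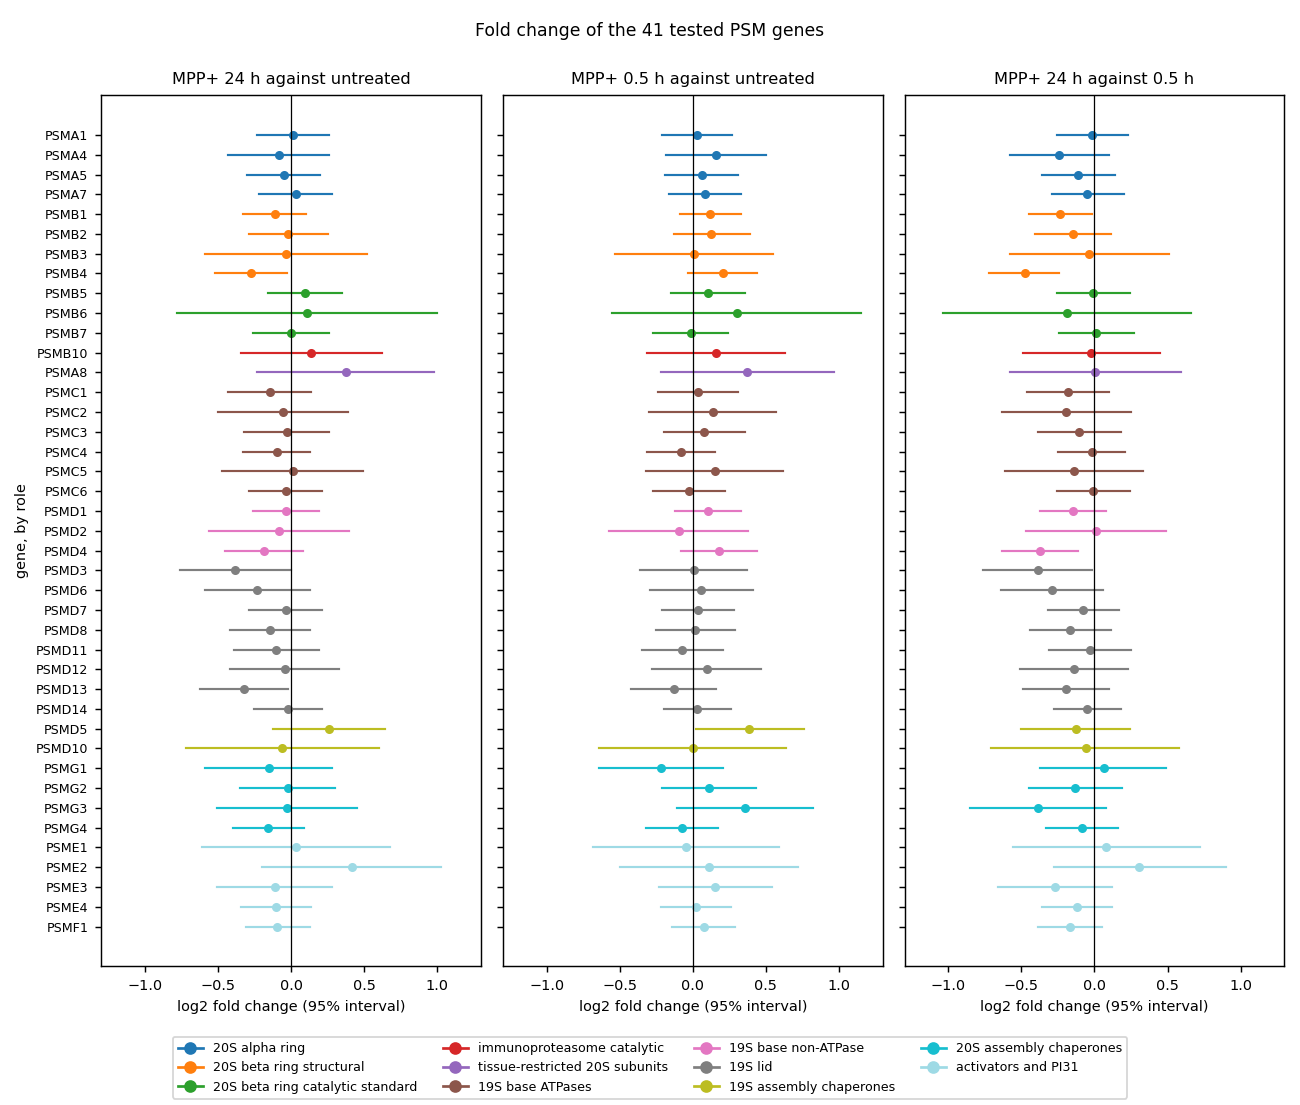
Log2 fold change (x axis, point) with its 95% interval (line) for the 41 tested PSM genes, ordered and coloured by role, with 24 h over untreated cells in the left panel, 0.5 h over untreated cells in the middle and 24 h over 0.5 h on the right. No gene passed the adjusted test, 35 of 41 points lie below 0 in the right panel, and PSMB4 lies farthest below 0 there at -0.48.

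The summed share of reads on the 48 genes was lowest at 24 h, and how far the groups stood apart depended on the total it was divided by. At 24 h the PSM genes took 0.195% of the assigned counts in the first library (95% exact binomial interval 0.1923 to 0.1983) and 0.203% in the second (0.1998 to 0.207). At 0.5 h they took 0.207% (0.2042 to 0.2094) and 0.218% (0.2147 to 0.2209). Untreated cells had 0.205% (0.2014 to 0.2081) and 0.211% (0.2079 to 0.2141). These intervals cover counting error only. The group means were 0.199% ± 0.00573 at 24 h, 0.212% ± 0.00781 at 0.5 h and 0.208% ± 0.00442 in untreated cells (SD, n = 2 each). Both 24 h libraries were below both untreated libraries, and the 0.5 h libraries overlapped the untreated ones. Divided by the TMM-scaled library size used for the gene values, the shares were 0.1983% and 0.1975% at 24 h, 0.2132% and 0.2182% at 0.5 h, and 0.2082% and 0.2074% in untreated cells. On that scale the 3 groups did not overlap. Divided by the counts of nuclear protein-coding genes, they were 0.2294% and 0.2398% at 24 h, 0.2424% and 0.2587% at 0.5 h, and 0.2388% and 0.248% in untreated cells. On that scale the 24 h and the 0.5 h libraries both overlapped the untreated ones.

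Promoters of the genes that carry the results below are shown from RefSeq (GRCh38.p14), each as 250 bases before and 50 after a transcription start, 5′ to 3′ on the gene's strand. PSMB4, PSMD3 and PSMD13 had the smallest p-values at 24 h against untreated cells and PSMD5 at 0.5 h. PSMB10 and PSMB8 are the immunoproteasome genes with the highest level and with almost no counts. PSMB4 is at chr1:151399323-151399622 (+), PSMD3 at chr17:39980557-39980856 (+), PSMD13 at chr11:236726-237025 (+), PSMD5 at chr9:120842873-120843172 (-), PSMB10 at chr16:67936801-67937100 (-) and the second listed PSMB8 start at chr6:32843998-32844297 (-). Capitals mark every match, on either strand, to the 7 motifs named after the sequences.
PSMB4: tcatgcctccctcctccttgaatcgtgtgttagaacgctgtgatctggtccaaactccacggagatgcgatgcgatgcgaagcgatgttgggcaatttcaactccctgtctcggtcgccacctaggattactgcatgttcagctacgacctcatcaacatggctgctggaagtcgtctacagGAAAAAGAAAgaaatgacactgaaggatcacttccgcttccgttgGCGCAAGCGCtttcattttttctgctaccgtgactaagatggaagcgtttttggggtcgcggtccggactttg
PSMD3: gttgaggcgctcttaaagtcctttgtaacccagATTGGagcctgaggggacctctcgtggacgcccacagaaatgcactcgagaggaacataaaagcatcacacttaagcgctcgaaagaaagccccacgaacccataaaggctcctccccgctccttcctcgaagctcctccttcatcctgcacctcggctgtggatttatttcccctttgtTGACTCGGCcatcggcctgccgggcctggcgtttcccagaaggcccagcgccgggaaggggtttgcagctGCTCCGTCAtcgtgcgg
PSMD13: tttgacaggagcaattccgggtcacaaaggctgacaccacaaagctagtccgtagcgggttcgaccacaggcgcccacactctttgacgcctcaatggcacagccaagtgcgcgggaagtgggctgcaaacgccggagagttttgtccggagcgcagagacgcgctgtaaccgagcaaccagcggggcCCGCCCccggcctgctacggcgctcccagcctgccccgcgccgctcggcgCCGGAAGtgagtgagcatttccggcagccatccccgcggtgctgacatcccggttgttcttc
PSMD5: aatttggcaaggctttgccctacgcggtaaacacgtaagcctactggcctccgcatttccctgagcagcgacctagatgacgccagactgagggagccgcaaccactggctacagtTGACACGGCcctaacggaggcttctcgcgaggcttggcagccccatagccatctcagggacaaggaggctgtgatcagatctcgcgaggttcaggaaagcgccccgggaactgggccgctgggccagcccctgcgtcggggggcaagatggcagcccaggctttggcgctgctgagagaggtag
PSMB10: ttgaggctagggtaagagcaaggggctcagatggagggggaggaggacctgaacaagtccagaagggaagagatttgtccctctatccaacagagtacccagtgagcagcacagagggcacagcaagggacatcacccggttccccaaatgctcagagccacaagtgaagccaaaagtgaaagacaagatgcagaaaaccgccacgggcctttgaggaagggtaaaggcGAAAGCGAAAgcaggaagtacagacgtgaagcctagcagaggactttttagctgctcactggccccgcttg
PSMB8: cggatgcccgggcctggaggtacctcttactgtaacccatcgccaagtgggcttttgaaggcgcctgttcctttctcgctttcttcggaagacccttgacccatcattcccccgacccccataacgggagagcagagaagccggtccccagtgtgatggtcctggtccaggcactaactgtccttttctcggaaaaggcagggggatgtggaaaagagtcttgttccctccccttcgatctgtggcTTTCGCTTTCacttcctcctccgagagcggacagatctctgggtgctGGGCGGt

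The motifs were TGACNNNGC, the core of the antioxidant response element bound by NFE2L1 and NFE2L2, CCAAT, the GC box GGGCGG, the ETS motif CCGGAAG and TATAAA. The other two were a form of the NRF1 motif, which repeats GCGC after any 2 bases, and a form of the interferon-stimulated response element. The last one repeats GAAA after any 2 bases. Of the 48 genes, 42 had a RefSeq promoter, giving 51 promoters to set beside 35116 of all genes. The latter belong to 27305 genes, more than the 19900 protein-coding ones, so they are not limited to that class as the PSM genes are. TGACNNNGC stood in 29.4% of the PSM promoters and 13.3% of all promoters, CCGGAAG in 29.4% and 10.3%, and GGGCGG in 68.6% and 45%. The NRF1 form stood in 17.6% and 8.32%, CCAAT in 39.2% and 34.6%, and TATAAA in 9.8% and 11.5%. The interferon-response form stood in 13.7% of the PSM promoters, those of PSMA4, PSMB4, PSMB8, PSMB10, PSME1, PSME2 and PSMG4, and in 3.57% of all. The median GC content was 62% for the PSM promoters and 58.7% for all promoters, and several of these motifs are GC-rich. A match is a description of letters and not a binding site, and no test was made of these shares.

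Among the genes shown, PSMD3 held TGACNNNGC at 37 bases before the start and again after it, and PSMD5 at 134 bases before. PSMB4 held the interferon-response form at 68 and the NRF1 form at 23 bases before the start. PSMD13 held CCGGAAG at 12 and the GC box at 62 bases before. PSMB10 held the interferon-response form at 21 bases before the start. In PSMB8 it began 4 bases before the second listed start and ran across it, and the first listed PSMB8 start held no match to it.

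Of the 7 alpha-ring genes, 4 could be tested, and none passed in any comparison. Alpha subunits form the gated outer ring, through which unfolded proteins enter. PSMA7 had 74.5 and 63.3 CPM at 24 h, 71 and 72 CPM at 0.5 h, and 69.9 and 65.3 CPM in untreated cells. Its 0.5 h libraries lay above the untreated ones and its 24 h libraries spanned them, with log2 fold changes of 0.08 ± 0.11 (SE) at 0.5 h and 0.03 ± 0.11 at 24 h. PSMA1, PSMA4 and PSMA5 overlapped between each treatment and untreated cells, with log2 fold changes from -0.08 to 0.16. The RefSeq promoter of PSMA1 is at chr11:14520337-14520636 (- strand), inside the gene body that was counted, chr11:14504874-14643635. Most of that body lies before the RefSeq start, so the PSMA1 values may not be those of the unit that begins there. Another gene on the same strand overlaps part of the body and leaves 123291 of its 138762 bases free. Whether the overlapped part is that unit was not examined. If it is, nearly all PSMA1 counts would come from before that start. PSMA4 averaged 37.7 CPM at 24 h, 44.6 ± 5.68 CPM at 0.5 h and 39.7 ± 5.35 CPM in untreated cells (SD, n = 2 each). Its second library was the higher one in each group.

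The 4 structural beta-ring genes were PSMB1, PSMB2, PSMB3 and PSMB4, which have no active site and hold the ring together. PSMB4 (chr1:151399534-151401944, + strand) had the smallest p of all PSM genes between the 2 treatment times. It had 41.2 and 40.3 CPM at 24 h, 56.3 and 57.3 CPM at 0.5 h, and 52 and 46.7 CPM in untreated cells. The 3 groups did not overlap: both 24 h libraries were the lowest and both 0.5 h libraries the highest. The log2 fold change of 24 h against 0.5 h was -0.48 ± 0.11 (95% interval -0.72 to -0.24), or 0.718-fold, with an adjusted p of 0.754 by edgeR. Against untreated cells it was -0.27 ± 0.11 at 24 h (adjusted p = 0.602) and 0.20 ± 0.11 at 0.5 h (adjusted p = 1), by the same test.

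PSMB1 lay in the same order at smaller distances. It had 57.3 and 57.8 CPM at 24 h, 67.5 and 67.7 CPM at 0.5 h, and 61.5 and 62.9 CPM in untreated cells. Its libraries agreed closely within each group, and the groups did not overlap. The log2 fold change of 24 h against 0.5 h was -0.23 ± 0.09, with an adjusted p of 0.768 by edgeR. PSMB2 and PSMB3 overlapped between all groups, and PSMB3 averaged 11.9 CPM at 24 h, 12.2 CPM at 0.5 h and 12 CPM in untreated cells.

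The catalytic beta subunits showed no group difference beyond the spread of their libraries. PSMB5 carries the chymotrypsin-like site, the main target of proteasome inhibitors used in myeloma, PSMB6 the caspase-like site and PSMB7 the trypsin-like site. PSMB5 had 65.7 and 59.6 CPM at 24 h, 67.4 and 58.9 CPM at 0.5 h, and 56.4 and 61.1 CPM in untreated cells. Its log2 fold change was 0.09 ± 0.11 at 24 h (95% interval -0.16 to 0.35) and 0.10 ± 0.11 at 0.5 h (-0.15 to 0.36), both against untreated cells. The groups overlapped.

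PSMB7 had 93.1 and 89.8 CPM at 24 h, 89.4 and 92.1 CPM at 0.5 h, and 101 and 82.7 CPM in untreated cells. The untreated libraries spanned all treated ones, and the 24 h interval of the log2 fold change was -0.26 to 0.26. PSMB6, a short gene with few counts, had 5.57 and 9.25 CPM at 24 h, 6.34 and 10.5 CPM at 0.5 h, and 4.47 and 8.8 CPM in untreated cells. Its second library exceeded its first in each group by more than any group mean differed from another, and its 24 h interval of the log2 fold change reached from -0.78 to 1 log2 unit.

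The immunoproteasome replaces the catalytic subunits with PSMB8, PSMB9 and PSMB10, which interferon-gamma induces and which favour the production of peptides for MHC class I. PSMB10 alone of the 3 was above the limit that a count of 0 allows in each library. It had 15.8 and 15.7 CPM at 24 h, 17.5 and 14.4 CPM at 0.5 h, and 11.8 and 16.7 CPM in untreated cells, and the groups overlapped. Its log2 fold changes were 0.14 ± 0.21 at 24 h and 0.16 ± 0.21 at 0.5 h, both against untreated cells. Only 1.07 kb of its gene body is free of another gene.

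PSMB8 had 2 counts in the second 0.5 h library and 0 in every other library, which allows up to 3 counts in each of those. PSMB9 had 1 count in the first 24 h library, 1 in the first 0.5 h library and 0 elsewhere. Unlike the alpha-ring genes at 0, these genes have 3369 and 5607 bases free of other genes, to which uniquely mapped reads could have been assigned. The first listed PSMB8 start lies in the part that PSMB9 overlaps, where no read could be counted. Whether reads of the MHC region map uniquely was not tested, so these low counts do not show that the genes are silent. They lie side by side in the MHC class II region, PSMB8 at chr6:32840717-32844703 (- strand) and PSMB9 at chr6:32844136-32859585 (+ strand). Within 250 kb on each side of PSMB8, 11 of the 15 other protein-coding genes had at most 10 counts over the 6 libraries, where 17.8% of all 19900 protein-coding genes did. They include TAP1 and TAP2, although both of these are wholly overlapped by other genes. BRD2, in the same window, had 889 counts.

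The core also has subunits with tissue-restricted roles. PSMA8, the alpha subunit of the testis proteasome, had 14 and 11.9 CPM at 24 h, 15.7 and 10 CPM at 0.5 h, and 11.7 and 8.44 CPM in untreated cells. Both 24 h libraries lay just above both untreated ones, with a log2 fold change of 0.37 ± 0.27 and an adjusted p of 0.771 by edgeR. PSMB11, the beta subunit of the thymus proteasome, had 1 to 3 counts in each library, no more than the limit that a count of 0 allows.

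The 6 ATPases of the regulatory particle, which unfold the substrate, gave 5 log2 fold changes below 0 at 24 h against untreated cells, from -0.15 for PSMC1 to 0.01 for PSMC5. PSMC4 had 52.8 and 51.3 CPM at 24 h, 50.7 and 54.8 CPM at 0.5 h, and 56 and 55.6 CPM in untreated cells. The untreated libraries were the highest, but the difference was small, with a log2 fold change of -0.10 ± 0.10 at 24 h and -0.08 ± 0.10 at 0.5 h. PSMC1 had 30.7 and 28.9 CPM at 24 h, 34.7 and 32.9 CPM at 0.5 h, and 33.5 and 32.6 CPM in untreated cells, so that both 24 h libraries were below all others. PSMC2, PSMC3, PSMC5 and PSMC6 overlapped between 24 h and untreated cells.

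The non-ATPase subunits of the base are PSMD1 and PSMD2, the scaffolds that bind ubiquitin-like shuttle proteins, and PSMD4, a receptor for ubiquitin chains. PSMD4 (chr1:151254703-151267479, + strand) had 48.6 and 55 CPM at 24 h, 64.8 and 68.9 CPM at 0.5 h, and 54.4 and 63.1 CPM in untreated cells. The 24 h and 0.5 h groups stood apart on either side of the untreated one, which overlapped the 24 h group. The log2 fold change of 24 h against 0.5 h was -0.37 ± 0.12 (95% interval -0.63 to -0.11), with an adjusted p of 0.754 by edgeR. Against untreated cells it was -0.19 ± 0.12 at 24 h and 0.18 ± 0.12 at 0.5 h. PSMD1 averaged 98.5 CPM at 24 h, 109 CPM at 0.5 h and 101 CPM in untreated cells, and PSMD2 overlapped between all groups.

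PSMB4 and PSMD4, the genes with the smallest p-values between the treatment times, lie 132 kb apart on the long arm of chromosome 1, a fact looked for after their values were seen. Of 9 genes that lie wholly between them, 7 were tested. Their log2 fold changes of 24 h against 0.5 h ran from -0.10 to 0.52 with a median of -0.02, and 0 of them had an unadjusted p under 0.05 by edgeR.

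All 8 lid genes had a log2 fold change below 0 at 24 h against untreated cells, with a median of -0.123, where 75.6% of the tested PSM genes and 49.6% of all genes were below 0. None of the 8 passed the test. The lid subunit SEM1, whose symbol falls outside the rule, had a log2 fold change of 0.10 ± 0.14. PSMD3 (chr17:39980797-39997960, + strand), a scaffold subunit of the lid, had 29.3 and 34.7 CPM at 24 h, 36.3 and 47.5 CPM at 0.5 h, and 38.1 and 44.8 CPM in untreated cells. Both 24 h libraries were below all others. The log2 fold change at 24 h was -0.38 ± 0.17, or 0.768-fold, against untreated cells (adjusted p = 0.615) and -0.39 ± 0.17 against 0.5 h (adjusted p = 0.768), by edgeR.

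PSMD13 (chr11:236546-252984, + strand), another structural subunit of the lid, had 39.7 and 34.1 CPM at 24 h, 40.4 and 44.4 CPM at 0.5 h, and 49.4 and 43.3 CPM in untreated cells. The 24 h libraries were the lowest, and the 0.5 h libraries overlapped the untreated ones. The log2 fold change at 24 h against untreated cells was -0.32 ± 0.13, with an adjusted p of 0.602 by edgeR. PSMD6 had 28.9 and 21.9 CPM at 24 h, 30.8 and 31.7 CPM at 0.5 h, and 29.2 and 30.8 CPM in untreated cells, and its lower mean at 24 h came mostly from the second library. PSMD14, the deubiquitylating enzyme of the lid, averaged 129 CPM at 24 h, 134 CPM at 0.5 h and 132 CPM in untreated cells, and its 24 h interval of the log2 fold change was -0.25 to 0.21.

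**Figure D2:**
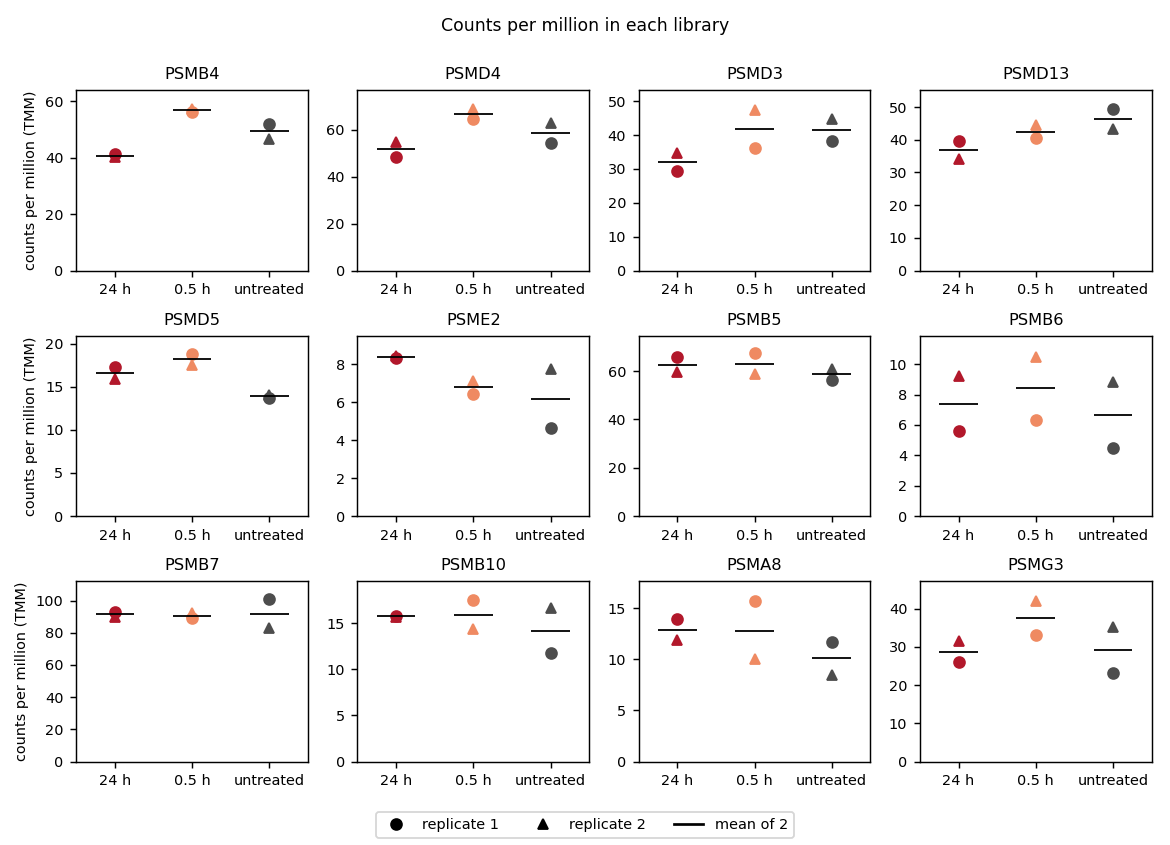
TMM-scaled CPM (y axis, from 0) of 12 PSM genes in each library at 24 h, at 0.5 h and untreated (x axis), with circles for replicate 1, triangles for replicate 2 and a line at the mean of 2. PSMB4 is lowest at 24 h (41.2 and 40.3 CPM) and highest at 0.5 h (56.3 and 57.3 CPM), whereas in PSMB6 replicate 2 is above replicate 1 in each group.

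Chaperones of the regulatory particle include PSMD5, which binds the ATPase ring before the particle is complete, PSMD10 (gankyrin), an oncoprotein found in liver cancer, and PSMD9. PSMD5 (chr9:120815496-120842984, - strand) had the smallest p at 0.5 h. It had 17.3 and 15.9 CPM at 24 h, 18.8 and 17.6 CPM at 0.5 h, and 13.7 and 14.1 CPM in untreated cells. All treated libraries were above both untreated ones. The log2 fold change was 0.39 ± 0.16 at 0.5 h (95% interval 0.02 to 0.76, adjusted p = 1) and 0.26 ± 0.17 at 24 h (adjusted p = 0.749), by edgeR. PSMD10 had 7.94 and 8.6 CPM at 24 h, 7.22 and 10.1 CPM at 0.5 h, and 6.35 and 10.7 CPM in untreated cells, and the untreated libraries spanned the treated ones.

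The 4 chaperones of the core particle work as pairs, PSMG1 with PSMG2 and PSMG3 with PSMG4, and start the alpha ring. PSMG3 had 26.1 and 31.5 CPM at 24 h, 33.1 and 42 CPM at 0.5 h, and 23.1 and 35.1 CPM in untreated cells. The 0.5 h group was above the 24 h group and overlapped the untreated one, with a log2 fold change of 0.36 ± 0.21 at 0.5 h against untreated cells (adjusted p = 1, edgeR). PSMG1 had 47 and 42.4 CPM at 24 h, 45.6 and 40 CPM at 0.5 h, and 61.2 and 38.9 CPM in untreated cells. Its untreated libraries spanned all treated ones, and the sign of its 0.5 h fold change, -0.22 ± 0.19, depended on the first untreated library. PSMG4 averaged 143 CPM at 24 h, 151 CPM at 0.5 h and 159 CPM in untreated cells, the highest level before length is taken into account. Its RefSeq promoter, at chr6:3258697-3258996 (+ strand), lies inside the gene body that was counted, chr6:3231403-3303373. Part of the PSMG4 level may therefore come from before that start.

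Among the alternative caps, PSME1 and PSME2 form the interferon-inducible activator, PSME3 a nuclear activator and PSME4 the large single-chain activator, while PSMF1 encodes an inhibitor of the core. PSME2 had 8.29 and 8.44 CPM at 24 h, 6.43 and 7.13 CPM at 0.5 h, and 4.62 and 7.74 CPM in untreated cells. The 24 h libraries were the highest, with a log2 fold change of 0.42 ± 0.27 against untreated cells (95% interval -0.20 to 1.03, adjusted p = 0.749, edgeR). Its partner PSME1 had 24.2 and 30.2 CPM at 24 h, 20.3 and 31.2 CPM at 0.5 h, and 18.8 and 33.8 CPM in untreated cells, and the untreated libraries spanned all others. PSME3, PSME4 and PSMF1 had log2 fold changes of -0.11, -0.10 and -0.09 at 24 h against untreated cells.

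Levels per length differed far more between the genes than between the groups. For 44 genes with at least 1 kb of body free of other genes, CPM was divided by the free length, and the median over genes was 2.75 CPM per kb. PSMB4 was the highest at 20.3 CPM per kb as the mean of all libraries, followed by PSMB10 at 14.3, PSMC5 at 12.6, PSMG3 at 11.6 and PSMA7 at 10.3 CPM per kb. Among these, the ranges over libraries of neighbours overlap, so that their order after PSMB4 is not resolved. PSMB4 had 16.9 ± 0.282 CPM per kb at 24 h, 23.5 ± 0.287 at 0.5 h and 20.5 ± 1.55 in untreated cells (SD, n = 2 each). PSMB10 had 14.7 ± 0.00463 CPM per kb at 24 h, 14.9 ± 2.08 at 0.5 h and 13.3 ± 3.18 in untreated cells.

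At the other end, PSMA1 had 0.536, PSMA8 0.203, PSMB11 0.091, PSMB8 0.0114 and PSMB9 0.00614 CPM per kb. For PSMA1 most of the counted body lies before its RefSeq start, so its low value may not be the level of the unit that begins there. The core holds its catalytic subunits in equal numbers, but their signal per length was unequal: PSMB5 had 3.5, PSMB6 3.17 and PSMB7 1.47 CPM per kb. Over the 41 tested genes the level per kb was lower where the free length was greater. Between the log10 values r was -0.759, and the Spearman rho was -0.711. The level is CPM divided by that same free length, which by itself pulls both values towards the negative. This correlation is across genes of the same libraries and is a description. Counts at the start of a gene, where polymerase pauses, weigh more per length in a short gene, and their part in it was not tested.

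**Figure D3:**
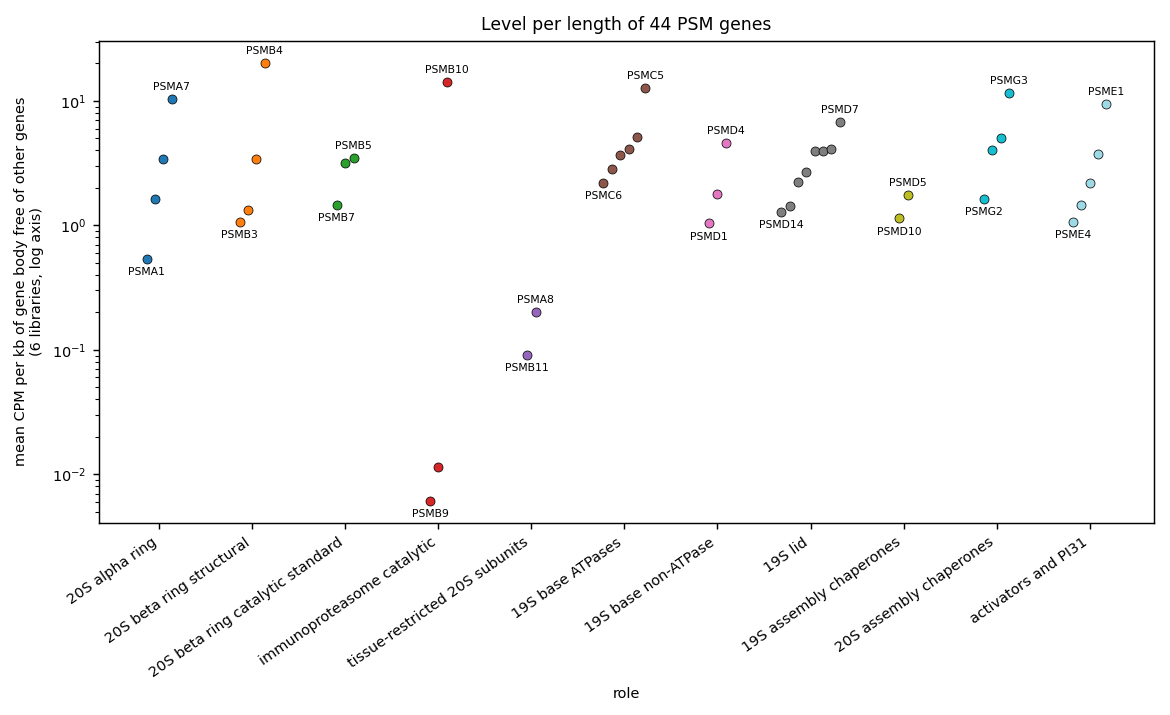
Mean level over the 6 libraries, in CPM per kb of gene body free of other genes (y axis, log scale), of 44 PSM genes grouped by role (x axis), one point a gene, with the lowest and highest gene of each role named. PSMB4 is the highest at 20.3 CPM per kb, and PSMB8 and PSMB9 lie lowest, at 0.0114 and 0.00614 CPM per kb.

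For 23 of the 41 tested genes the libraries of a group differed by more than the groups did. In 18 of the 41 tested genes (43.9%) replicate 2 was above replicate 1 in each of the 3 groups, where 22.3% of all tested genes did so. Replicate 1 was above in each group for 6 genes (14.6%), where 21.7% of all genes did so. In those 23 genes (56.1%) the mean absolute difference between the replicates exceeded the largest difference between group means, where this held for 46.6% of all genes.

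Among the 41 tested PSM genes the replicate difference ran with gene length. The trend with length was computed for these genes only, and whether it is particular to them was not examined. Of the 16 genes shorter than 12 kb, 9 were higher in replicate 2 in each group, and so were 9 of the 25 longer ones. The median difference, replicate 2 minus replicate 1 on the scale of log2(CPM + 0.5), was 0.193 for the shorter genes and -0.0565 for the longer ones. It was 0.756 for PSMB6, 0.583 for PSME1, 0.425 for PSMD10 and 0.399 for PSMG3, and -0.433 for PSMA8. Across the 41 genes its r with log10 length was -0.479 and its rho -0.429, given as a description of genes that share the same libraries.

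**Figure D4:**
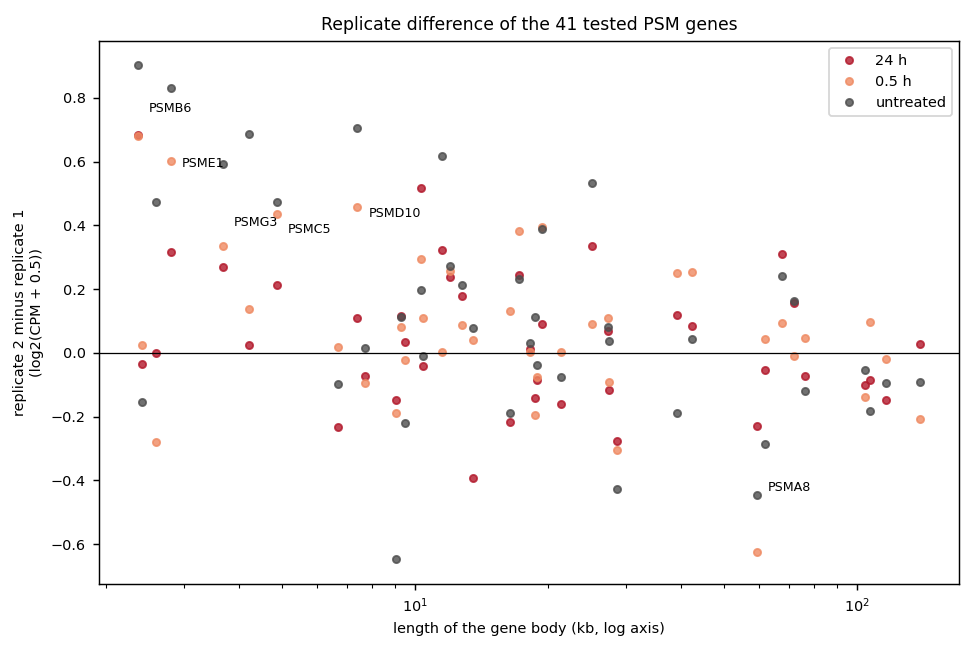
Difference of replicate 2 minus replicate 1 in log2(CPM + 0.5) (y axis) against gene body length in kb (x axis, log scale) for the 41 tested PSM genes, one point for each of the groups 24 h, 0.5 h and untreated. The short genes PSMB6 and PSME1 have the largest mean differences, 0.756 and 0.583, and the long gene PSMA8 has the lowest at -0.433.

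Partners of the proteasome whose symbols fall outside the rule, 13 genes among them the ubiquitin receptor ADRM1, the small subunit SEM1 and the maturation factor POMP, gave no call. Of the 13, 7 had a log2 fold change below 0 at 24 h against untreated cells, with a median of -0.0185. ADRM1 had 33.6 and 34.4 CPM at 24 h, 34.7 and 37.6 CPM at 0.5 h, and 37 and 42.1 CPM in untreated cells, in which both 24 h libraries were below both untreated ones. POMP had 35.8 and 43.3 CPM at 24 h, 44.5 and 43.5 CPM at 0.5 h, and 43.2 and 49.5 CPM in untreated cells, and the 24 h and untreated groups overlapped narrowly.

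When the proteasome is inhibited, cells raise its subunit genes through the transcription factor NFE2L1, which is freed from the endoplasmic reticulum by VCP, NGLY1 and the protease DDI2. Of the 14 genes listed for this pathway, 0 were called and 7 were below 0 at 24 h against untreated cells. NFE2L1 had 105 and 118 CPM at 24 h, 111 and 108 CPM at 0.5 h, and 92.5 and 106 CPM in untreated cells, with a log2 fold change of 0.16 ± 0.11 at 24 h. VCP had 32.1 and 35.4 CPM at 24 h, 38.7 and 40.9 CPM at 0.5 h, and 40.7 and 39.6 CPM in untreated cells. Its 24 h libraries were the lowest, with a log2 fold change of -0.25 ± 0.12 against untreated cells (adjusted p = 0.64, edgeR).

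Of 13 ubiquitin and shuttle genes 0 were called. UBQLN2, a shuttle protein that carries ubiquitylated proteins to the proteasome and is mutated in a form of amyotrophic lateral sclerosis, had 24.6 and 22.6 CPM at 24 h, 33.1 and 30.9 CPM at 0.5 h, and 36.4 and 36.1 CPM in untreated cells. The groups did not overlap, and the 24 h libraries were the lowest. Its log2 fold change at 24 h against untreated cells, -0.62 ± 0.13, had an adjusted p of 0.334 by edgeR. The ubiquitin precursor genes UBB and RPS27A had log2 fold changes of 0.12 ± 0.15 and -0.10 ± 0.13 at 24 h.

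The antigen-processing genes, which share the interferon response with PSMB8, PSMB9, PSMB10, PSME1 and PSME2, had 6 of 12 members tested and 0 called. HLA-C had 53 and 26 counts at 24 h, 49 and 19 at 0.5 h, and 12 and 18 in untreated cells. Its log2 fold change at 24 h against untreated cells was 1.46 ± 0.41, with an adjusted p of 0.522 by edgeR. It passed the test when no filter on low counts was used, and reads of MHC class I genes can be shared between near-identical copies. NLRC5, the activator of the MHC class I genes, had a log2 fold change of 0.21 ± 0.17 at 24 h.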

How the data were processed

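PRO-seq libraries were made from SH-SY5Y nuclei (6 libraries, 3 groups of 2), per the labels' protocols. The submitters' processing notes name the hg38 build, featureCounts 2.0.1 as a counter, Bowtie2 2.4.2 as an aligner and cutadapt 1.16.5, with no settings. The authors deposited whole-number counts per gene and library, and tables of changed genes with adjusted p-values, of which the authors' deposited p-values were read for membership only. Symbols came from GENCODE release 29 and a gene name table: 60437 of 67051 identifiers were named from the table and 243 from GENCODE, and 6371 had no symbol. The annotation used for counting may be newer, so overlaps between genes are those of release 29.

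Counts were analysed with edgeR 4.0.16 in R 4.3.3: filterByExpr, TMM factors, and glmQLFit and glmQLFTest on all 6 libraries with group as the only term (3 residual degrees of freedom). Standard errors and 95% intervals come from the same fit. CPM values are scaled by TMM. DESeq2 1.42.0 and other scalings, filters and left-out libraries were alternatives. The fits were tested on simulated data with known changes. Of genes changed 1.5-fold, 10.4% were called at 0.5 h and 17.9% at 24 h, both against untreated cells. Of genes changed 2-fold, 50.7% and 46.3% were called. Among the genes left unchanged, 6 were called at 0.5 h and 12 at 24 h. The changed genes were drawn from all tested genes, so these shares are not those of the PSM genes. Smaller changes would thus mostly be missed. A chi-square of 4.13 to 8.97 per degree of freedom between the libraries of a group showed that none is a copy. The genes, lists and tests were chosen with earlier results of these data known. Genes named beyond the catalytic ones have the smallest p or the highest or lowest fold change among the tested genes, or stand out within a listed group; others are named to show a role. Values of some listed genes are not reported here.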

Additional observations from a re-analysis of the deposited data

How the results depend on the processing

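Over 14 settings, the 59 named pairs of gene and comparison gave 824 alternative values, of which 789 kept sign and side of the threshold, 30 changed sign and 5 newly passed the test. The labels do not say that equal replicate numbers mark a shared culture or day. Deviations of same-numbered libraries correlated (r = 0.293 to 0.328 over 23133 genes), but each comparison has only 2 pairs, so the pairing is a hint from the data. With a replicate block, edgeR called 57 genes at 0.5 h, 685 at 24 h and 412 for 24 h against 0.5 h, and 2 PSM genes in the last, PSMB4 (adjusted p = 0.0186) and PSMD4 (adjusted p = 0.0418). UBQLN2 and HLA-C at 24 h also passed with it, and HLA-C also without a filter on low counts. Without a filter on low counts the calls over all genes were 66 at 0.5 h, 245 at 24 h and 73 for 24 h against 0.5 h, and DESeq2 called 31 at 24 h. Leaving out 1 library gave 9 to 19 calls at 0.5 h and 8 to 16 at 24 h over all genes. The PSM median then ran from -0.0954 to -0.0389 at 24 h and from 0.0326 to 0.097 at 0.5 h. With nuclear protein-coding counts as denominator the mean PSM share was 0.235% at 24 h, 0.251% at 0.5 h and 0.243% in untreated cells.

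Some signs turned. PSMB7 at 0.5 h was 0.00 without a filter, and at 24 h 0.01 under upper-quartile scaling and under library size only, and 0.00 without a filter and with the block. For 24 h against 0.5 h, PSMB10 was 0.01 and PSMB5 0.02 under upper-quartile scaling and library size only. Leaving out 1 library, the log2 fold change at 0.5 h ran from -0.06 to 0.43 for PSMB10, -0.09 to 0.88 for PSMB6, -0.16 to 0.13 for PSMB7 and -0.52 to 0.14 for PSMG1. At 24 h it ran from -0.03 to 0.39 for NLRC5, -0.08 to 0.40 for PSMB10, -0.28 to 0.69 for PSMB6 and -0.15 to 0.14 for PSMB7. For 24 h against 0.5 h it ran from -0.16 to 0.13 for PSMB10, -0.10 to 0.09 for PSMB5, -0.57 to 0.20 for PSMB6, -0.02 to 0.04 for PSMB7 and -0.20 to 0.41 for PSME1. The cause was not tested. PSMB6, PSMD10, PSME1, PSME2 and PSMA8 had the widest intervals.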
